A study of Homo sapiens with 9 samples.

Results

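Expression of the extracellular metalloproteinases and of their inhibitors was examined in 786-0 cells. This clear cell renal cell carcinoma line lacks functional VHL and HIF1α and expresses HIF2α constitutively. The genes were taken by symbol from the protein-coding genes of GENCODE release 44. All symbols of the matrix metalloproteinases (MMP), the ADAM and ADAMTS proteases, the numbered ADAMTS-like proteins (ADAMTSL) and the tissue inhibitors of metalloproteinases (TIMP) were used. They were 71 of the 58735 genes in the table: 23 MMP, 20 ADAM, 19 ADAMTS, 5 ADAMTSL and 4 TIMP genes. The pseudogenes ADAM5, ADAM6 and MMP23A were not included.

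MMPs are zinc-dependent proteases that cut collagens, basement membrane and other matrix proteins, and they are made as inactive precursors that must be activated outside or at the surface of the cell. ADAMs are mostly anchored in the membrane and release the outer part of growth factors, cytokines and adhesion molecules, while ADAMTS enzymes are secreted and cut proteoglycans and procollagens. TIMPs bind the active site of these enzymes and block it. ADAMTSL proteins resemble ADAMTS enzymes without their protease domain. Matrix proteases are widely studied in renal carcinoma for their part in invasion and metastasis.

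The deposited series holds 3 groups of 3 libraries each: 786-0 WT cells without PT2385 (control), 786-0 WT cells given 10 μM PT2385, a HIF2α antagonist, for 48 h (PT2385), and 786-0 cells with a HIF2a knockout and no PT2385 (KO). All of them were kept for 48 h in 21% O2, in DMEM with 5 mM glucose and 10% FBS, so that none of the groups was hypoxic. The paper's RNA sequencing methods name the control and PT2385 groups alone, and its experiments on HIF2α silencing used siRNA. How the knockout was made, whether the KO cells are 1 clone, and whether the control cells received vehicle are not given in the sources used here. Loss of HIF2α and other features of the KO cells therefore cannot be told apart. Total counts ran from 11881000 to 14730081 per library, and nothing in the labels says that replicates were separate cultures. P-values thus measure the spread between these libraries, which may be technical.

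EPAS1, the gene of HIF2α, checked the labels. Its levels in CPM (counts scaled to the size of each library and normalised by TMM) were 271, 264 and 232 in the control libraries, 247, 247 and 220.5 with PT2385, and 20.2, 25.1 and 21.0 in KO. The KO libraries were thus far below all others, with a log2 fold change of -3.52 against control (SE 0.096, adjusted p = 2.15e-09). PT2385 libraries overlapped the control range (log2 fold change -0.11, adjusted p = 0.459). The reads left in KO cannot be assigned to exons from counts per gene. All 8 renal epithelial markers examined had over 3 counts in a library. Their summed level was 1460 to 1533 CPM in control, 1687 to 1779 CPM with PT2385 and 1876 to 2113 CPM in KO. Single markers went either way: mean KRT8 was 405 CPM in control and 586 in KO, and mean PAX2 34.2 and 13.7. Of the fibroblast markers 4 of 8 were detected, with a sum of at most 13.4 CPM and COL1A2, COL3A1, PDGFRA and DCN at 0. Endothelial markers (1 of 5 detected, at most 0.54 CPM in all) were close to 0, with PECAM1, VWF and CLDN5 at 0.

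Many of the family members gave too few reads for a test. After the filter on low counts (edgeR's filterByExpr, minimum 10 counts), 33 of the 71 were tested in at least 1 comparison: 10 ADAMTS, 9 ADAM, 8 MMP, 4 ADAMTSL and 2 TIMP genes. Another 11 had over 3 counts in some library without passing the filter, namely ADAM11, ADAM18, ADAM20, ADAM28, ADAMTS14, ADAMTS17, MMP7, MMP17, MMP25, MMP28 and TIMP4. A further 11 never exceeded 3 counts, namely ADAM21, ADAM23, ADAMTS4, ADAMTS12, ADAMTS18, MMP8, MMP10, MMP19, MMP20, MMP21 and MMP23B. The remaining 16 had 0 counts in all 9 libraries. They were ADAM2, ADAM7, ADAM29, ADAM30, ADAM33, ADAMTS8, ADAMTS10, ADAMTS19, ADAMTS20, ADAMTSL2, MMP3, MMP11, MMP12, MMP26, MMP27 and TIMP3. A count of 0 allows up to 3 counts, which is 0.204 to 0.253 CPM at these depths and covers counting error only. TIMP3, the inhibitor that is bound to the matrix and acts on ADAM17 and the aggrecanases, was thus not detectable here.

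Per length of exon (RPKM, normalised CPM per kilobase of exon), MMP14 was the highest of all members. This membrane-anchored collagenase, which also activates the MMP2 precursor, had means of 70.4 RPKM in control, 77.6 with PT2385 and 62.8 in KO. ADAMTS1 followed with 41.3, 47.9 and 53.6 RPKM. TIMP2 and TIMP1 came next, with 28.2 and 24.8 RPKM over all 9 libraries, ahead of MMP24 (21.3) and ADAM15 (17.8). The order below ADAMTS1 depended on the group. In control MMP24 (26.04 ± 1.67 SD, n = 3) and TIMP2 (25.1 ± 0.993) did not differ beyond their spread, while in KO TIMP2 (34.9 ± 2.50) lay above MMP24 (17.2 ± 2.23). At the other end ADAMTS7, ADAM8, ADAM32, ADAMTS13 and ADAMTSL4 were at or under 0.229 RPKM. By reads, ADAMTS1, MMP14, ADAM9 and ADAM10 together made up 48.8% of all member reads.

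**Figure D1:**
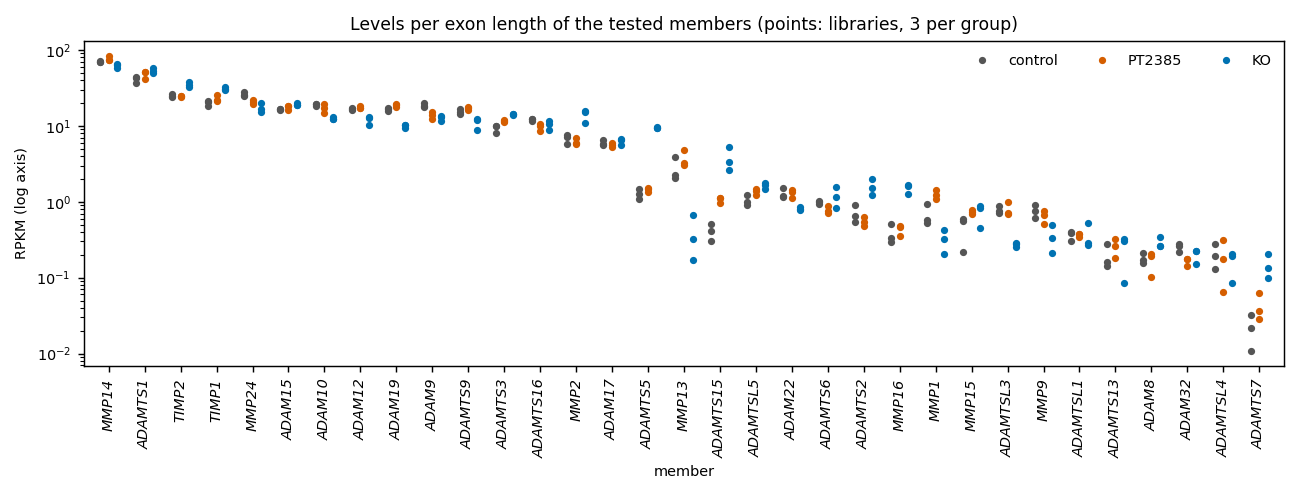
RPKM (log axis) of the 33 tested members in each of the 9 libraries, ordered by their mean over all libraries, with grey points for control, orange for PT2385 and blue for KO. MMP14 is the highest in each group, and the blue points of ADAMTS5 and MMP16 stand above the others while those of MMP13 stand below.

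Summed over each family, the groups differed in opposite directions. ADAM genes together had 1152 ± 46.5 CPM in control, 1064 ± 64.5 with PT2385 and 863 ± 16.3 in KO (mean ± SD, n = 3). ADAMTS genes went the other way, with 633 ± 40.8, 705 ± 26.2 and 810.1 ± 48.2 CPM. TIMP genes had 185 ± 4.305, 185 ± 5.17 and 262 ± 13.6 CPM, and MMP genes 491 ± 12.1, 504 ± 19.6 and 456 ± 12.9 CPM. The KO libraries did not overlap the control libraries in any of these 4 sums. Among single genes tested the share without overlap was 44.1%, and no such share was computed for sums of genes. ADAMTSL genes, the family with the lowest sum, had 17.6 ± 1.08, 18.9 ± 2.27 and 14.5 ± 1.71 CPM, with the KO libraries just below control. Most of the MMP sum is MMP14, with means of 326 CPM in control and 290 in KO. That change did not pass in edgeR's quasi-likelihood test (adjusted p = 0.0925). Of the 8 MMP genes tested, 2 were called higher and 4 lower in KO, so the sum does not describe each gene. With 3 libraries against 3, an exact permutation test cannot give a two-sided p under 0.1, so the sums were not tested.

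Upon PT2385 treatment few members changed. ADAMTS15 and ADAMTS3 were up-regulated and ADAM9, MMP24 and ADAMTS16 were down-regulated, which is 5 of the 32 members tested (15.6%). Over all 15089 genes tested, 7.7% passed the same threshold (adjusted p under 0.05, edgeR's quasi-likelihood test with Benjamini-Hochberg adjustment), 3.08% higher and 4.62% lower. The 3 PT2385 libraries did not overlap the 3 control libraries for 12 members (37.5%), against 26% of all genes. The median log2 fold change of the members was 0.04, and 0.00 over all genes. The number called depended on single libraries: it was 1 without control replicate 1, 2 without control replicate 2, 3 without PT2385 replicate 2 and 7 without PT2385 replicate 1. It was also 7 without the filter on low counts. Over all genes, the number called also fell without control replicate 1 or 2 or PT2385 replicate 2, and rose without PT2385 replicate 1. These shifts were thus not confined to the members. Of the 5 members, ADAMTS15 alone passed the threshold in every alternative tried.

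In the knockout most members that could be tested differed from control. Of 32 tested, 11 were higher and 11 lower (68.8%), against 30.1% of 15192 genes (14.7% higher and 15.4% lower). The groups did not overlap for 24 members (75%), against 44.1% of all genes. The median absolute log2 fold change was 0.60 among the members and 0.22 among all genes, and 9 of the called members changed at least 2-fold. The families were split: 5 of 9 ADAM genes fell and 1 rose, 5 of 9 ADAMTS genes rose and 1 fell, 4 of 8 MMP genes fell and 2 rose, and both TIMP genes rose.

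KO and PT2385 were also compared directly, since the PT2385 and KO contrasts against control use the same control libraries. Of 33 members tested, 9 were higher and 9 lower in KO than with PT2385 (54.5%), against 18.8% of 15402 genes (8.47% higher and 10.3% lower). The 9 higher include ADAMTS7, which passed the filter on low counts only through its KO libraries. Libraries of the groups did not overlap for 21 members (63.6%, against 35.4% of all genes). Being bulk RNA, the data cannot tell a change in every cell from a change in the share of cells that express a gene.

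**Figure D2:**
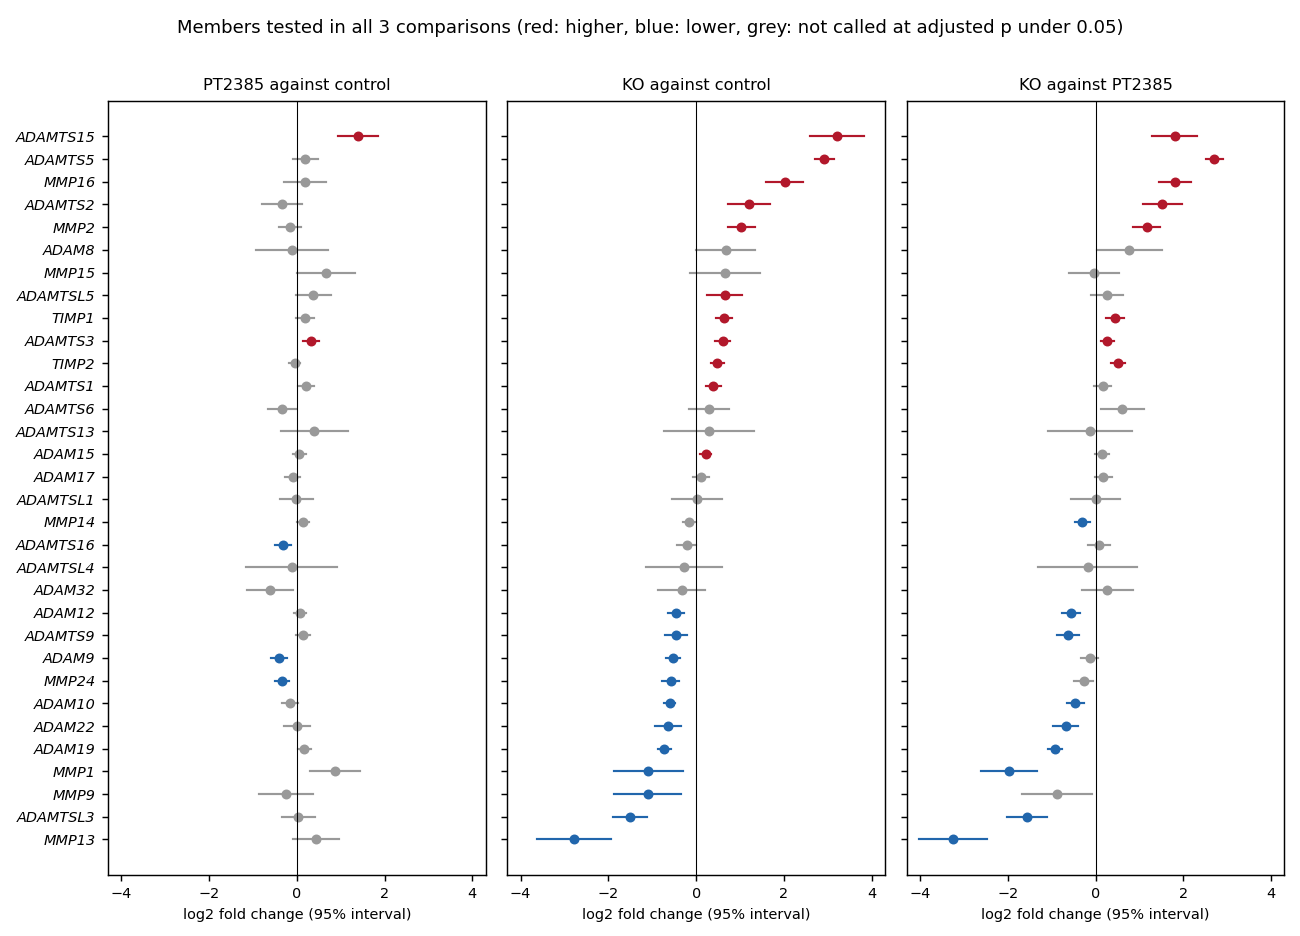
Log2 fold change with its 95% interval for the 32 members tested in all 3 comparisons, ordered by the KO against control values, with red for higher, blue for lower and grey for members that did not pass the threshold. In the left panel 5 members are coloured, in the middle panel 22 and in the right panel 17.

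Promoter sequences are shown for 5 changed members whose start is the same base in RefSeq and GENCODE and whose 250 bases upstream hold no annotated exon. ADAMTS7, called between KO and PT2385 alone, met the same rule and is not shown. ADAMTS2 and ADAMTS3 rose in KO and ADAM12, ADAM19 and MMP24 fell. HIF proteins bind the core ACGTG or GCGTG, and its matches on either strand are in capitals. The windows are 5′ to 3′ on the gene's strand, from RefSeq (GRCh38.p14), at chr5:179345462-179345711 (minus), chr4:72569222-72569471 (minus), chr10:126388478-126388727 (minus), chr5:157575776-157576025 (minus) and chr20:35226440-35226689 (plus).
ADAMTS2: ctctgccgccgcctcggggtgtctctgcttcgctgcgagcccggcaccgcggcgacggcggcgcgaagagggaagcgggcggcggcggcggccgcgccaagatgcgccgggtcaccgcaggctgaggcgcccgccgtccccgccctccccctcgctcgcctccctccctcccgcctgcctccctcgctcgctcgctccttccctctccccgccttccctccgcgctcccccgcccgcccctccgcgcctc
ADAMTS3: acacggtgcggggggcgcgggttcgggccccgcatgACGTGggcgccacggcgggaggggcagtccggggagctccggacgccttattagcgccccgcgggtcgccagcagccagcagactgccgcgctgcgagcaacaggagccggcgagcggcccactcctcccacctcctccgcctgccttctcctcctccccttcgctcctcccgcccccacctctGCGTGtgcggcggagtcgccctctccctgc
ADAM12: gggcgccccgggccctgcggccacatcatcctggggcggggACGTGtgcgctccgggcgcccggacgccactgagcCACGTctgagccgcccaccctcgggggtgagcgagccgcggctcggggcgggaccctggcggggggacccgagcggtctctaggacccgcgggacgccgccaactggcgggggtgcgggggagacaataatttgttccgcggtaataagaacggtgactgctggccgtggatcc
ADAM19: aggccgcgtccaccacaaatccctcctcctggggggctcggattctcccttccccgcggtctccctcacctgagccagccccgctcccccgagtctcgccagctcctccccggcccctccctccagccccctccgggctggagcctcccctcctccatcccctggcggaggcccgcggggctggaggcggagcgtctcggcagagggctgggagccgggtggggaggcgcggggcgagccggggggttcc
MMP24: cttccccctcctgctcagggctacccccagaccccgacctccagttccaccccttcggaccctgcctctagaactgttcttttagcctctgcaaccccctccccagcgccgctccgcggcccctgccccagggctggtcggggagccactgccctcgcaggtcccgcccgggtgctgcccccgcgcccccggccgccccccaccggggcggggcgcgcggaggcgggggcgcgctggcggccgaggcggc

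ADAMTS3 holds matches at -214 and -30 from the start and ADAM12 at -209 and -174, while the windows of ADAMTS2, ADAM19 and MMP24 hold none. Each window shown is rich in G and C, from 73.6% in ADAM12 to 80.0% in ADAMTS2. The window of ADAMTS7 had 80.8% G and C and no match to the core. Among the 44 members with a promoter entry the core occurred in 20 (45.5%), and among all 35116 promoters of the same length in 43.2%. The AP-1 motif TGANTCA, on either strand, was found in 4 of the 44 (ADAMTS12, MMP7, MMP10 and MMP20, 9.09%) and in 6.57% of all promoters. These 4 had too few reads for a test. Another 27 members had no promoter entry, among them 12 of the 25 called in at least 1 comparison. MMP1, MMP2, MMP9, MMP13, MMP16, ADAMTS5 and ADAMTS15 were among those without an entry, so the shares do not cover them. A match is a string of letters and no evidence of binding.

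The secreted collagenases MMP1 and MMP13 were low in all groups and lowest in KO. MMP13 (collagenase 3, ENSG00000137745, chromosome 11, 102942995 to 102955732, minus strand) had 10.9, 6.34 and 5.83 CPM in control, 13.7, 9.08 and 8.66 with PT2385 and 0.926, 1.88 and 0.4797 in KO. KO libraries lay below all others and PT2385 libraries overlapped the control range. Against control MMP13 fell 6.903-fold in KO, a log2 fold change of -2.79 (SE 0.39, adjusted p = 0.000275), the strongest decrease of any member. Against PT2385 the decrease was 9.49-fold (log2 fold change -3.25, SE 0.35, adjusted p = 0.000119). PT2385 against control gave a log2 fold change of 0.44 (SE 0.24, adjusted p = 0.335).

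MMP1 (interstitial collagenase, ENSG00000196611, chromosome 11, 102789401 to 102798160, minus strand) stood at 0.747 RPKM against 2.27 for MMP13, with counts of 17, 19 and 31 in control, 42, 40 and 55 with PT2385 and 15, 8 and 13 in KO. Its PT2385 libraries were above and its KO libraries below every control library. The change with PT2385 did not pass the threshold (log2 fold change 0.87, SE 0.26, adjusted p = 0.0652), although it did without control replicate 3 (adjusted p = 0.03097) and without the filter on low counts (adjusted p = 0.0149). In KO it fell 2.13-fold against control (log2 fold change -1.09, SE 0.36, adjusted p = 0.0405) and 3.93-fold against PT2385 (log2 fold change -1.98, SE 0.29, adjusted p = 0.000791). The first of these did not hold without control replicate 2 or 3 or KO replicate 2 or 3 (adjusted p from 0.0567 to 0.185) nor with DESeq2 (adjusted p = 0.0902). The second held in every alternative in which MMP1 was tested.

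MMP1 and MMP13 lie in a cluster of 9 MMP genes on chromosome 11, 102520508 to 102955732, which spans 435 kb. The other 7 (MMP7, MMP20, MMP27, MMP8, MMP10, MMP3 and MMP12) gave too few reads for a test.

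The gelatinases went in opposite directions in KO. MMP2 (gelatinase A, ENSG00000087245, chromosome 16, 55389700 to 55506691, plus strand), which cuts denatured collagen and basement membrane collagen, had 36.001, 33.4 and 27.1 CPM in control, 32.7, 27.01 and 27.8 with PT2385 and 73.3, 71.98 and 50.6 in KO. The KO libraries were all higher than the rest, and the other 2 groups overlapped. MMP2 rose 2.04-fold against control (log2 fold change 1.03, SE 0.14, adjusted p = 0.000288) and 2.23-fold against PT2385 (log2 fold change 1.16, SE 0.14, adjusted p = 0.000241). PT2385 against control gave a log2 fold change of -0.15 (SE 0.12, adjusted p = 0.512). MMP9 (gelatinase B, ENSG00000100985, chromosome 20, 46008908 to 46016561, plus strand) had counts of only 17, 26 and 21 in control, 22, 16 and 22 with PT2385 and 10, 7 and 17 in KO. In CPM the KO libraries (0.771, 0.488 and 1.17) were all below those of control (1.43, 2.14 and 1.75). MMP9 fell 2.16-fold in KO against control (log2 fold change -1.11, SE 0.35, adjusted p = 0.03401), but not without control replicate 2 or 3 or KO replicate 1 or 2 (adjusted p up to 0.132) nor with DESeq2 (adjusted p = 0.0873). Against PT2385 it did not pass (log2 fold change -0.88, SE 0.36, adjusted p = 0.122).

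Among the MMPs that are anchored in the membrane, MMP16 rose and MMP24 fell in KO, while MMP14 changed little. MMP16 (MT3-MMP, ENSG00000156103, chromosome 8, 88032011 to 88328025, minus strand) had 3.61, 4.03 and 6.08 CPM in control, 5.62, 5.803 and 4.29 with PT2385 and 19.5, 20.4 and 15.2 in KO. All KO libraries were at least 2 times above any other library. The rise was 4.04-fold against control (log2 fold change 2.02, SE 0.19, adjusted p = 1.77e-05) and 3.502-fold against PT2385 (log2 fold change 1.81, SE 0.17, adjusted p = 3.93e-05), while PT2385 against control gave a log2 fold change of 0.19 (SE 0.22, adjusted p = 0.682).

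MMP24 (MT5-MMP, ENSG00000125966, chromosome 20, 35226690 to 35276998, plus strand), best known from the nervous system, had 122, 113 and 107 CPM in control, 89.1, 97.2 and 85.5 with PT2385 and 67.7, 71.98 and 86.3 in KO. Control libraries were above all of the others, and PT2385 and KO libraries overlapped. It fell 1.26-fold with PT2385 (log2 fold change -0.33, SE 0.074, adjusted p = 0.0164) and 1.5002-fold in KO (log2 fold change -0.59, SE 0.092, adjusted p = 0.000664). The call with PT2385 did not hold without control replicate 1 or 2 (adjusted p = 0.0855 and 0.0784). KO against PT2385 gave a log2 fold change of -0.27 (SE 0.099, adjusted p = 0.08704), which passed without KO replicate 3 (adjusted p = 0.00969) and without the filter on low counts (adjusted p = 0.0301). MMP24OS, a gene on the opposite strand that shares exon sequence with MMP24, gave log2 fold changes of 0.00 with PT2385, -0.03 in KO and -0.04 between KO and PT2385.

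MMP14 (MT1-MMP, ENSG00000157227, chromosome 14, 22836560 to 22849041, plus strand) had 318, 335 and 324 CPM in control, 340.2, 345 and 391 with PT2385 and 295, 269.8 and 306 in KO. These groups did not overlap, with PT2385 highest and KO lowest. MMP14 was 1.24-fold lower in KO than with PT2385 (log2 fold change -0.31, SE 0.077, adjusted p = 0.01697), a call lost without PT2385 replicate 2 or 3 or KO replicate 1 or 2 (adjusted p from 0.0582 to 0.0655). Against control neither PT2385 (log2 fold change 0.13, SE 0.063, adjusted p = 0.242) nor KO (log2 fold change -0.15, SE 0.063, adjusted p = 0.0925) passed, although the latter did without KO replicate 3 (adjusted p = 0.0264). MMP15 (MT2-MMP) was near 0.637 RPKM and passed in no comparison, with a log2 fold change of 0.67 with PT2385 (95% interval 0.00 to 1.33) and 0.66 in KO (95% interval -0.14 to 1.45).

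Both TIMP genes with enough reads rose in KO. TIMP1 (ENSG00000102265, chromosome X, 47582408 to 47586789, plus strand), a broad inhibitor of secreted MMPs, had 26.8, 30.1 and 30.4 CPM in control, 30.9, 31.8 and 37.1 with PT2385 and 44.8, 43.1 and 47.3 in KO. TIMP2 (ENSG00000035862, chromosome 17, 78852977 to 78925387, minus strand), which inhibits MMP14 and also joins it in the activation of MMP2, had 163, 155 and 150.4 CPM in control, 152, 149 and 154 with PT2385 and 212, 234 and 204 in KO. For both genes every KO library was above all of the other 6. TIMP1 rose 1.56-fold against control (log2 fold change 0.64, SE 0.082, adjusted p = 0.000157) and 1.35-fold against PT2385 (log2 fold change 0.43, SE 0.091, adjusted p = 0.00698). TIMP2 rose 1.399-fold (log2 fold change 0.48, SE 0.067, adjusted p = 0.000278) and 1.43-fold (log2 fold change 0.51, SE 0.070, adjusted p = 0.000514).

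With PT2385 neither TIMP gene passed, although the 3 PT2385 libraries of TIMP1 lay just above control (log2 fold change 0.19, SE 0.094, adjusted p = 0.278). TIMP2 gave a log2 fold change of -0.05 (SE 0.059, adjusted p = 0.707), with a 95% interval of -0.17 to 0.08. CEP295NL, which shares exon sequence with TIMP2 on the same strand, had 618 counts over all libraries against 20799 for TIMP2, and was higher in KO than in control (log2 fold change 0.69, SE 0.17, adjusted p = 0.0111). TIMP4 had too few reads for a test.

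**Figure D3:**
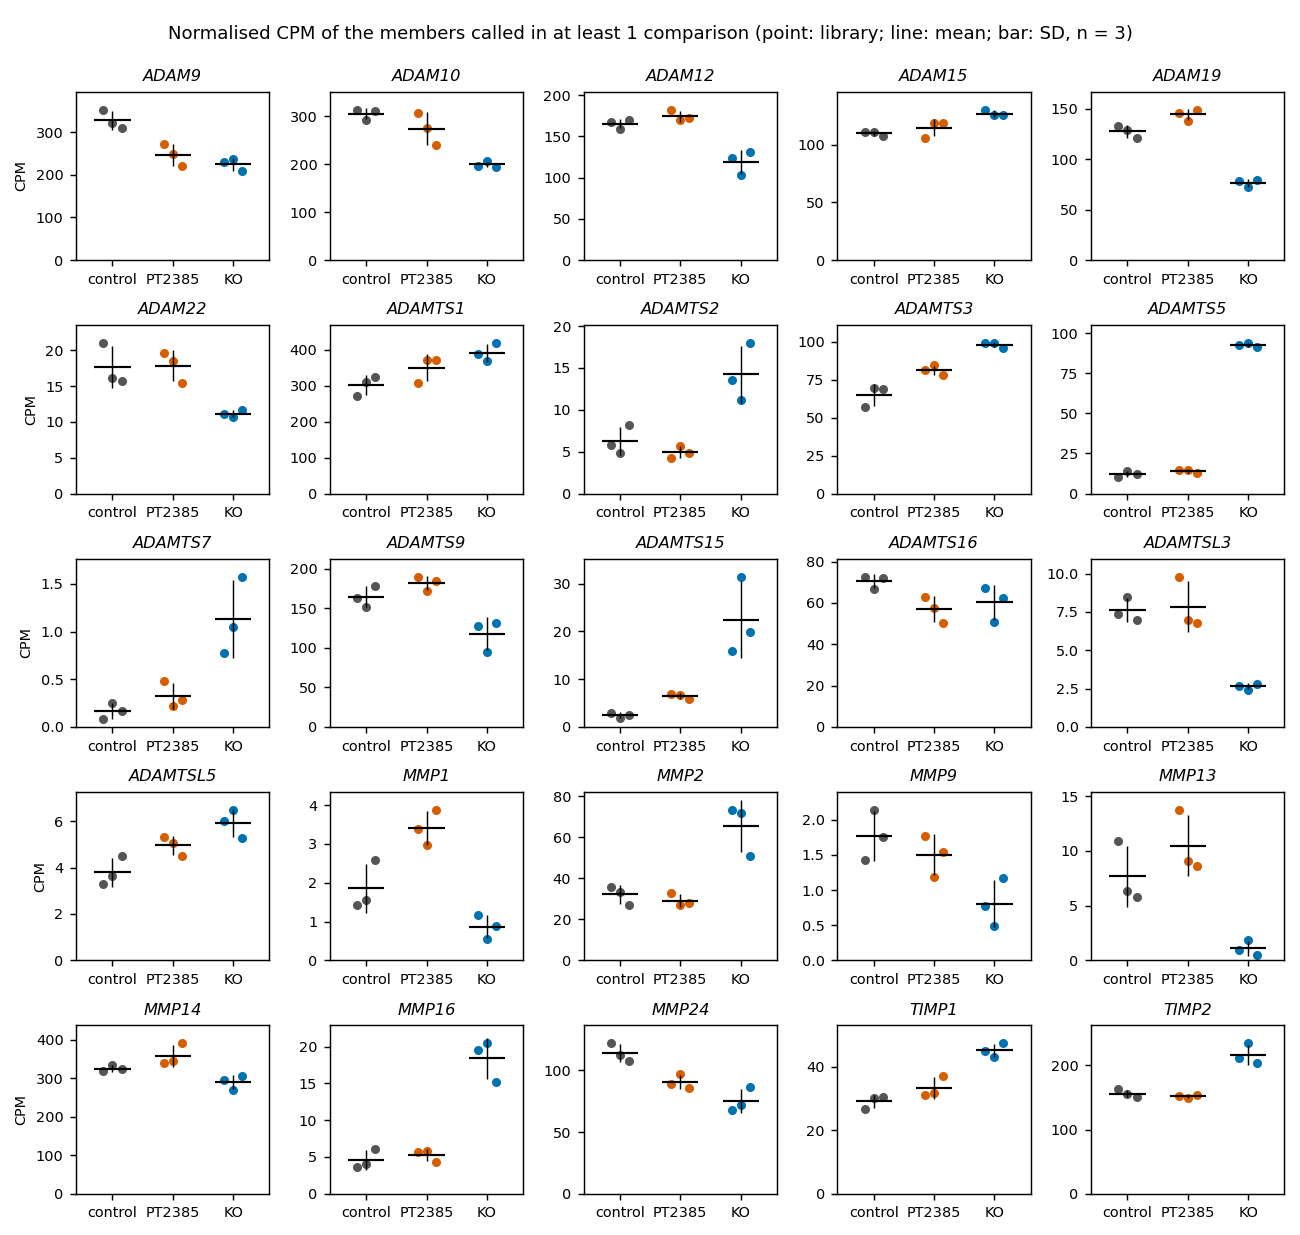
Normalised CPM of the 25 members called in at least 1 comparison, 1 panel a gene with its own axis from 0, with points for libraries, a line for the mean and a bar for the SD (n = 3). ADAMTS5 stands at about the same level in control and PT2385 (means of 12.3 and 14.1 CPM) and at 92.5 CPM in KO, while ADAMTS15 goes from 2.44 to 6.46 and 22.4 CPM.

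ADAMTS15 and ADAMTS5, enzymes that cut proteoglycans, had the strongest increases of all members in KO. ADAMTS5 (aggrecanase 2, ENSG00000154736, chromosome 21, 26917922 to 26967088, minus strand) had 10.5, 14.2 and 12.2 CPM in control, 14.5, 14.95 and 12.95 with PT2385 and 92.6, 93.6 and 91.2 in KO. The KO libraries agreed within 3 CPM of each other and were over 6 times above any other library. The rise was 7.55-fold against control (log2 fold change 2.92, SE 0.097, adjusted p = 5.08e-09) and 6.52-fold against PT2385 (log2 fold change 2.71, SE 0.085, adjusted p = 5.20e-08). PT2385 against control gave a log2 fold change of 0.19 (SE 0.13, adjusted p = 0.448), with a 95% interval of -0.10 to 0.48.

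ADAMTS15 (ENSG00000166106, chromosome 11, 130448645 to 130476645, plus strand), which cuts versican and aggrecan, had counts of 36, 22 and 30 in control, 85, 91 and 82 with PT2385 and 206, 452 and 291 in KO. None of the groups overlapped in CPM, and the counts of the KO libraries ranged from 206 to 452. It rose 2.63-fold with PT2385 (log2 fold change 1.39, SE 0.21, adjusted p = 0.00108) and 9.25-fold in KO (log2 fold change 3.21, SE 0.28, adjusted p = 9.55e-06), the largest fold change of any member in either contrast against control. KO was also 3.47-fold above PT2385 (log2 fold change 1.80, SE 0.23, adjusted p = 0.000372). ADAMTS8, its neighbour 20035 bases away, had no reads.

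ADAMTS1 (ENSG00000154734, chromosome 21, 26835755 to 26845409, minus strand) is a versican-cutting enzyme that lies 72512 bases from ADAMTS5 on the same strand. It had 271, 310.4 and 323 CPM in control, 307, 372 and 371 with PT2385 and 389, 368 and 418 in KO. The rise in KO was 1.31-fold against control (log2 fold change 0.39, SE 0.076, adjusted p = 0.00279), far smaller than that of ADAMTS5. PT2385 did not pass against control (log2 fold change 0.21, SE 0.085, adjusted p = 0.181), although it did without PT2385 replicate 1 (adjusted p = 0.0249) and without the filter on low counts (adjusted p = 0.0304), and KO did not pass against PT2385 (log2 fold change 0.16, SE 0.086, adjusted p = 0.241).

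ADAMTS9 (ENSG00000163638, chromosome 3, 64515654 to 64688000, minus strand), a versican-cutting enzyme as well, was the only ADAMTS gene to fall in KO. It had 164, 152 and 179 CPM in control, 190.2, 173 and 184 with PT2385 and 128, 94.3 and 132 in KO, so that every KO library was below the rest. The fall was 1.39-fold against control (log2 fold change -0.47, SE 0.11, adjusted p = 0.00912) and 1.55-fold against PT2385 (log2 fold change -0.63, SE 0.12, adjusted p = 0.00311). Versican itself (VCAN), the only gene with enough reads of 4 aggrecanase substrates listed, stayed near 1468 CPM in control and 1492 in KO and passed in no comparison (adjusted p of 0.566, 0.727 and 0.48999).

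Enzymes that trim the amino end of procollagens rose in KO. ADAMTS2 (ENSG00000087116, chromosome 5, 179110853 to 179345461, minus strand) had 5.79, 4.85 and 8.16 CPM in control, 4.26, 5.73 and 4.86 with PT2385 and 13.6, 11.1 and 17.96 in KO. All KO libraries were above the other 6. ADAMTS2 rose 2.29-fold against control (log2 fold change 1.19, SE 0.22, adjusted p = 0.00169) and 2.86-fold against PT2385 (log2 fold change 1.52, SE 0.20, adjusted p = 0.000412), while PT2385 against control gave a log2 fold change of -0.34 (SE 0.21, adjusted p = 0.388). ADAMTS3 (ENSG00000156140, chromosome 4, 72280969 to 72569221, minus strand), which also processes the VEGFC precursor, had 56.8, 69.4 and 69.2 CPM in control, 81.3, 84.4 and 78.3 with PT2385 and 99.1, 98.9 and 96.2 in KO.

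None of the 3 groups overlapped for ADAMTS3. It rose 1.25-fold with PT2385 (log2 fold change 0.32, SE 0.084, adjusted p = 0.0402) and 1.52-fold in KO (log2 fold change 0.60, SE 0.080, adjusted p = 0.000204), and KO was 1.203-fold above PT2385 (log2 fold change 0.27, SE 0.068, adjusted p = 0.0188). Its call with PT2385 was lost without any 1 control replicate or without PT2385 replicate 2 (adjusted p from 0.0565 to 0.176). That of KO against PT2385 was lost without PT2385 replicate 2 or KO replicate 1 or 2 (adjusted p up to 0.0804). ADAMTS14, the other enzyme of this kind, had too few reads for a test.

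The remaining ADAMTS genes changed little or were close to the floor. ADAMTS16 (ENSG00000145536, chromosome 5, 5140330 to 5320304, plus strand) had 72.8, 66.97 and 72.3 CPM in control, 62.8, 57.8 and 50.3 with PT2385 and 67.4, 51.003 and 62.4 in KO. It fell 1.25-fold with PT2385 (log2 fold change -0.32, SE 0.087, adjusted p = 0.0469), a call lost when any library other than PT2385 replicate 1 was left out (adjusted p from 0.08102 to 0.1599), under upper-quartile or library size scaling (adjusted p = 0.0559 and 0.0722) and in 1 model of all 9 libraries (adjusted p = 0.115). KO against control gave a log2 fold change of -0.22 (SE 0.097, adjusted p = 0.114), which passed without the filter on low counts (adjusted p = 0.0452).

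ADAMTS7 (ENSG00000136378, chromosome 15, 78759206 to 78811464, minus strand), which cuts cartilage oligomeric matrix protein, had counts of 1, 3 and 2 in control, 6, 3 and 4 with PT2385 and 10, 15 and 23 in KO. The control libraries were all at or under 3 counts, and the gene passed the filter on low counts between KO and PT2385 alone. It passed there only through its KO libraries, the group in which it is high, so the call is no independent support for a rise. There KO was 3.44-fold higher (log2 fold change 1.78, SE 0.45, adjusted p = 0.0185), but not without PT2385 replicate 2 or 3 or KO replicate 3 (adjusted p up to 0.0886). Without the filter, ADAMTS7 was also higher in KO than in control (adjusted p = 3.90e-05), and did not pass with PT2385 (adjusted p = 0.704). ADAMTS6 and ADAMTS13, the von Willebrand factor protease, passed in no comparison, at 0.987 and 0.229 RPKM. In KO against control their log2 fold changes were 0.29 (SE 0.21, adjusted p = 0.326) and 0.28 (SE 0.47, adjusted p = 0.694).

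Of the ADAMTSL genes, ADAMTSL3 fell and ADAMTSL5 rose in KO. ADAMTSL3 (ENSG00000156218, chromosome 15, 83654088 to 84039842, plus strand) had 7.38, 8.47 and 6.99 CPM in control, 9.8004, 6.99 and 6.76 with PT2385 and 2.7000, 2.44 and 2.81 in KO. Its KO libraries were all under 3 CPM and the rest all above 6. ADAMTSL3 fell 2.85-fold against control (log2 fold change -1.51, SE 0.17, adjusted p = 6.65e-05) and 2.96-fold against PT2385 (log2 fold change -1.56, SE 0.20, adjusted p = 0.000387), while PT2385 against control gave 0.03 (adjusted p = 0.944).

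ADAMTSL5 (ENSG00000185761, chromosome 19, 1505022 to 1513604, minus strand) had 3.27, 3.62 and 4.496 CPM in control, 5.302, 5.06 and 4.505 with PT2385 and 6.02, 6.48 and 5.28 in KO. The rise in KO was 1.57-fold (log2 fold change 0.65, SE 0.18, adjusted p = 0.0192), with an adjusted p from 0.0531 to 0.0774 without control replicate 1 or 2 or KO replicate 1 or 2. ADAMTSL1 and ADAMTSL4 passed in no comparison, ADAMTSL1 with 0.01 on the log2 scale in KO against control (95% interval -0.56 to 0.58).

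Most ADAM genes with enough reads were lower in KO. ADAM10 (ENSG00000137845, chromosome 15, 58588809 to 58749791, minus strand), the protease that sheds APP, N-cadherin and Notch, had 313, 291 and 312 CPM in control, 307, 276 and 239 with PT2385 and 197, 206 and 195 in KO. All KO libraries lay below the other 6, and PT2385 overlapped control. ADAM10 fell 1.52-fold against control (log2 fold change -0.60, SE 0.058, adjusted p = 1.98e-05) and 1.38-fold against PT2385 (log2 fold change -0.46, SE 0.091, adjusted p = 0.00473). PT2385 against control gave a log2 fold change of -0.16 (SE 0.084, adjusted p = 0.307), which passed without PT2385 replicate 1 (adjusted p = 0.04799).

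ADAM17 (TACE, chromosome 2, 9488486 to 9556732), which releases TNF and several EGF receptor ligands, did not pass in any comparison. It had 103, 92.4 and 88.4 CPM in control, 94.1, 88.7 and 83.5 with PT2385 and 103, 109 and 90.7 in KO, and the ranges of all 3 groups overlapped. The 95% interval of its log2 fold change was -0.26 to 0.07 with PT2385 and -0.08 to 0.28 in KO. IAH1, which shares exon sequence with ADAM17 on the opposite strand, passed in no comparison either.

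ADAM9 (meltrin gamma, ENSG00000168615, chromosome 8, 38996754 to 39105445, plus strand) was lower in both PT2385 and KO libraries than in any control library, with 352, 321 and 309 CPM in control, 272, 249 and 221 with PT2385 and 229, 238 and 208 in KO. It fell 1.33-fold with PT2385 (log2 fold change -0.41, SE 0.082, adjusted p = 0.00887) and 1.44-fold in KO (log2 fold change -0.53, SE 0.072, adjusted p = 0.000228). The call with PT2385 was lost without control replicate 1 (adjusted p = 0.0519). KO against PT2385 gave a log2 fold change of -0.14 (SE 0.089, adjusted p = 0.328), with a 95% interval of -0.33 to 0.06. TM2D2, which shares exon sequence with ADAM9 on the opposite strand and had 2354 counts against 31110, differed by -0.14 with PT2385 (adjusted p = 0.464) and fell by 0.59 on the log2 scale in KO (adjusted p = 0.00223). Whether reads were counted by strand is not given in the sources used here.

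The meltrins ADAM12 and ADAM19 fell in KO and not with PT2385. ADAM12 (meltrin alpha, ENSG00000148848, chromosome 10, 126012381 to 126388477, minus strand), which sheds HB-EGF, had 167, 159 and 169.7 CPM in control, 182, 169 and 172 with PT2385 and 124, 103 and 131 in KO. ADAM19 (meltrin beta, ENSG00000135074, chromosome 5, 157395534 to 157575775, minus strand), which sheds neuregulin, had 133, 129 and 120.5 CPM in control, 146, 138 and 149 with PT2385 and 78.3, 71.9 and 78.95 in KO. Both had every KO library below all others, and for ADAM19 the PT2385 libraries were all above control.

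ADAM19 fell 1.66-fold against control (log2 fold change -0.73, SE 0.068, adjusted p = 1.52e-05) and 1.89-fold against PT2385 (log2 fold change -0.92, SE 0.072, adjusted p = 1.11e-05), while PT2385 against control did not pass (log2 fold change 0.18, SE 0.063, adjusted p = 0.1297). ADAM12 fell 1.38-fold (log2 fold change -0.46, SE 0.085, adjusted p = 0.001898) and 1.47-fold (log2 fold change -0.55, SE 0.093, adjusted p = 0.00182), with a log2 fold change of 0.07 (SE 0.060, adjusted p = 0.541) for PT2385 against control. CYFIP2, which shares exon sequence with ADAM19 on the opposite strand, went the other way in KO (log2 fold change 0.49 against control, SE 0.12, adjusted p = 0.0101).

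ADAM22 (ENSG00000008277, chromosome 7, 87934143 to 88202889, plus strand), a member without protease activity that binds LGI1 in the brain, had 20.98, 16.1 and 15.7 CPM in control, 19.6, 18.5 and 15.4 with PT2385 and 11.1, 10.7 and 11.7 in KO. It fell 1.56-fold against control (log2 fold change -0.65, SE 0.14, adjusted p = 0.00415) and 1.5999-fold against PT2385 (log2 fold change -0.68, SE 0.13, adjusted p = 0.00381), with a log2 fold change of 0.01 for PT2385 against control (adjusted p = 0.972). ADAM15 (metargidin, ENSG00000143537, chromosome 1, 155050566 to 155062775, plus strand), an integrin-binding member, was the only ADAM gene to rise in KO, with 111, 111 and 107 CPM in control, 106, 119 and 119 with PT2385 and 130.1, 125 and 125 in KO. The rise was 1.16-fold (log2 fold change 0.22, SE 0.058, adjusted p = 0.0144) and did not hold without control replicate 2 or 3 or KO replicate 1 (adjusted p = 0.0578, 0.0611 and 0.0581). ADAM8 and ADAM32 passed in no comparison. Together with ADAMTSL4, these members had log2 fold changes from -0.61 to 0.77 over the 3 comparisons.

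Genes that work with these proteases were examined in 9 lists of convertases, partners, inhibitors, substrates and transcription factors. With PT2385, 4 of 49 tested genes rose and 3 fell, against 7.7% of all genes called. In KO against control 13 of 50 rose and 14 fell, against 30.1% of all genes. The 13 include BTC and FOSB, which passed the filter on low counts only through their KO libraries, where they are high. Between KO and PT2385, 8 of 52 were higher and 16 lower in KO, against 18.8% of all genes. The 8 include BTC, which passed the filter only through KO, and the 16 include TSPAN15, which passed it only through PT2385.

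Proprotein convertases cut off the inhibitory domain of MMP14, the ADAMs and the ADAMTS enzymes. PCSK5 and FURIN, 2 of the 3 tested, fell in KO, where 15.4% of all genes fell. PCSK5 had 168, 162 and 199.8 CPM in control, 130.1, 147 and 167 with PT2385 and 19.4, 28.01 and 29.7 in KO. That is a log2 fold change of -2.76 (SE 0.14, adjusted p = 1.04e-07) against control, with -0.26 (SE 0.096, adjusted p = 0.141) for PT2385. FURIN fell from 94.3 ± 1.25 to 60.5 ± 4.699 CPM (mean ± SD, n = 3, log2 fold change -0.63, SE 0.071, adjusted p = 6.58e-05), and PCSK7 did not pass in KO (log2 fold change 0.08, SE 0.068, adjusted p = 0.413).

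Of the tetraspanins that carry ADAM10 to the cell surface, 5 could be tested between KO and control. TSPAN33 fell (log2 fold change -0.58, SE 0.089, adjusted p = 0.000556), TSPAN17 rose (log2 fold change 0.27, SE 0.070, adjusted p = 0.0139), and TSPAN5, TSPAN10 and TSPAN14 did not pass. TSPAN15, at 1.83 CPM with PT2385 and 0.309 in KO, was tested between these groups and was lower in KO (log2 fold change -2.53, SE 0.44, adjusted p = 0.00215). It passed the filter on low counts only through its PT2385 libraries, where it is high. For ADAM17, the iRhom gene RHBDF2, needed for its maturation, fell in KO (log2 fold change -0.60, SE 0.092, adjusted p = 0.000544) and FRMD8, which stabilises the complex, rose (log2 fold change 0.32, SE 0.067, adjusted p = 0.004098). RHBDF1 did not pass (log2 fold change 0.04, SE 0.092, adjusted p = 0.799). None of these genes passed with PT2385.

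LRP1, the endocytic receptor that clears MMPs, ADAMTS5 and TIMPs from the cell surface, had 104, 84.3 and 79.4 CPM in control, 113, 104 and 96.3 with PT2385 and 187, 189 and 158 in KO. KO libraries were all above the rest, and the log2 fold change against control was 1.01 (SE 0.10, adjusted p = 3.16e-05). PAPLN, an ADAMTS-like inhibitor of procollagen N-proteinase, rose as well (log2 fold change 1.15, SE 0.14, adjusted p = 0.000115), while RECK (log2 fold change -0.11, SE 0.18, adjusted p = 0.692) and TFPI2 (log2 fold change -0.30, SE 0.12, adjusted p = 0.0835) did not pass. BSG (CD147, an inducer of MMPs) rose in KO (log2 fold change 0.42, SE 0.058, adjusted p = 0.000281), B3GLCT, which glycosylates the thrombospondin repeats of ADAMTS proteins, fell (log2 fold change -0.38, SE 0.11, adjusted p = 0.0204), and its partner POFUT2 did not pass (log2 fold change 0.22, SE 0.086, adjusted p = 0.0715).

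In the astacin family, which completes procollagen processing at the other end, TLL1 fell (log2 fold change -1.39, SE 0.30, adjusted p = 0.00518) and TLL2 rose in KO (log2 fold change 0.62, SE 0.17, adjusted p = 0.0181). BMP1, of the same family, did not pass against control (log2 fold change 0.18, SE 0.070, adjusted p = 0.0755). PCOLCE and PCOLCE2 are enhancers of these enzymes and not proteases. Neither PCOLCE (log2 fold change -0.38, SE 0.32, adjusted p = 0.409) nor PCOLCE2 (log2 fold change -0.45, SE 0.18, adjusted p = 0.0752) passed against control. PCOLCE2 was lower in KO than with PT2385 (log2 fold change -0.96, SE 0.16, adjusted p = 0.00183).

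Several cell surface substrates of ADAM10 and ADAM17 were called, in both directions. Of 15 tested, 4 rose and 1 fell with PT2385 (7.7% of all genes were called), and of 16 tested 5 rose and 5 fell in KO against control (30.1% of all genes). Between KO and PT2385, 4 of 16 were higher and 6 lower in KO (18.8% of all genes). BTC, counted as higher in both KO comparisons, passed the filter on low counts only through its KO libraries. The EGF receptor ligand EREG had 303, 397 and 373 CPM in control, 578, 571 and 723 with PT2385 and 268, 267 and 305 in KO. It was higher than control with PT2385 (log2 fold change 0.80, SE 0.10, adjusted p = 0.000428), lower in KO (log2 fold change -0.34, SE 0.095, adjusted p = 0.0194), and lower in KO than with PT2385 (log2 fold change -1.16, SE 0.096, adjusted p = 1.87e-05). AREG, another ligand of this receptor, gave a log2 fold change of 1.09 (SE 0.16, adjusted p = 0.0009802) with PT2385, -0.63 (SE 0.19, adjusted p = 0.0257) in KO and -1.74 (SE 0.17, adjusted p = 5.54e-05) between KO and PT2385.

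HBEGF rose with PT2385 (log2 fold change 0.46, SE 0.12, adjusted p = 0.0412) and was lower in KO than with PT2385 (log2 fold change -1.07, SE 0.29, adjusted p = 0.0242), without passing between KO and control (adjusted p = 0.163). The chemokine CX3CL1 rose with PT2385 from 10.4 ± 0.916 to 21.4 ± 5.87 CPM (log2 fold change 1.03, SE 0.18, adjusted p = 0.003103) and was at 11.7 ± 1.47 CPM in KO, lower than with PT2385 (log2 fold change -0.87, SE 0.18, adjusted p = 0.00732). TGFA was lower than control with PT2385 (log2 fold change -0.91, SE 0.12, adjusted p = 0.000615) and in KO (log2 fold change -0.64, SE 0.083, adjusted p = 0.000176).

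Further substrates moved in KO against control at the level of transcripts. BTC, near the floor at 0.167 CPM in control and 1.22 in KO, was called higher (log2 fold change 2.81, SE 0.55, adjusted p = 0.00273). It passed the filter on low counts only through its KO libraries, the group in which it is high, so the call is no independent support for a rise. IL6R rose (log2 fold change 1.06, SE 0.33, adjusted p = 0.0311). L1CAM, TNFRSF1A and APP also rose and CDH2 and SDC1 fell, each by less than 2-fold. TNF, CD44, PRNP and SDC4 passed in no comparison.

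Transcription factors known at MMP promoters were called in both directions in KO. In KO against control JUN (log2 fold change -0.53, SE 0.089, adjusted p = 0.00105), JUNB and FOSL2 fell and ETV5 and FOSB rose, of 10 tested. FOSB was close to the floor, with 0.389 CPM in control and 1.22 in KO (log2 fold change 1.64, SE 0.40, adjusted p = 0.00955). It passed the filter on low counts only through its KO libraries, where it is high, so its call is no independent support either. With PT2385 ETS1 (log2 fold change -0.39, SE 0.087, adjusted p = 0.0158) and RUNX2 (log2 fold change -0.23, SE 0.061, adjusted p = 0.0414) fell, of 9 tested. Of 11 tested between KO and PT2385, JUN (log2 fold change -0.39) and FOSL2 (-0.29) were lower in KO and ETV5 (0.40) was higher. Over all genes, 30.1% were called in KO against control, 7.7% with PT2385 and 18.8% in KO against PT2385.

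**Figure D4:**
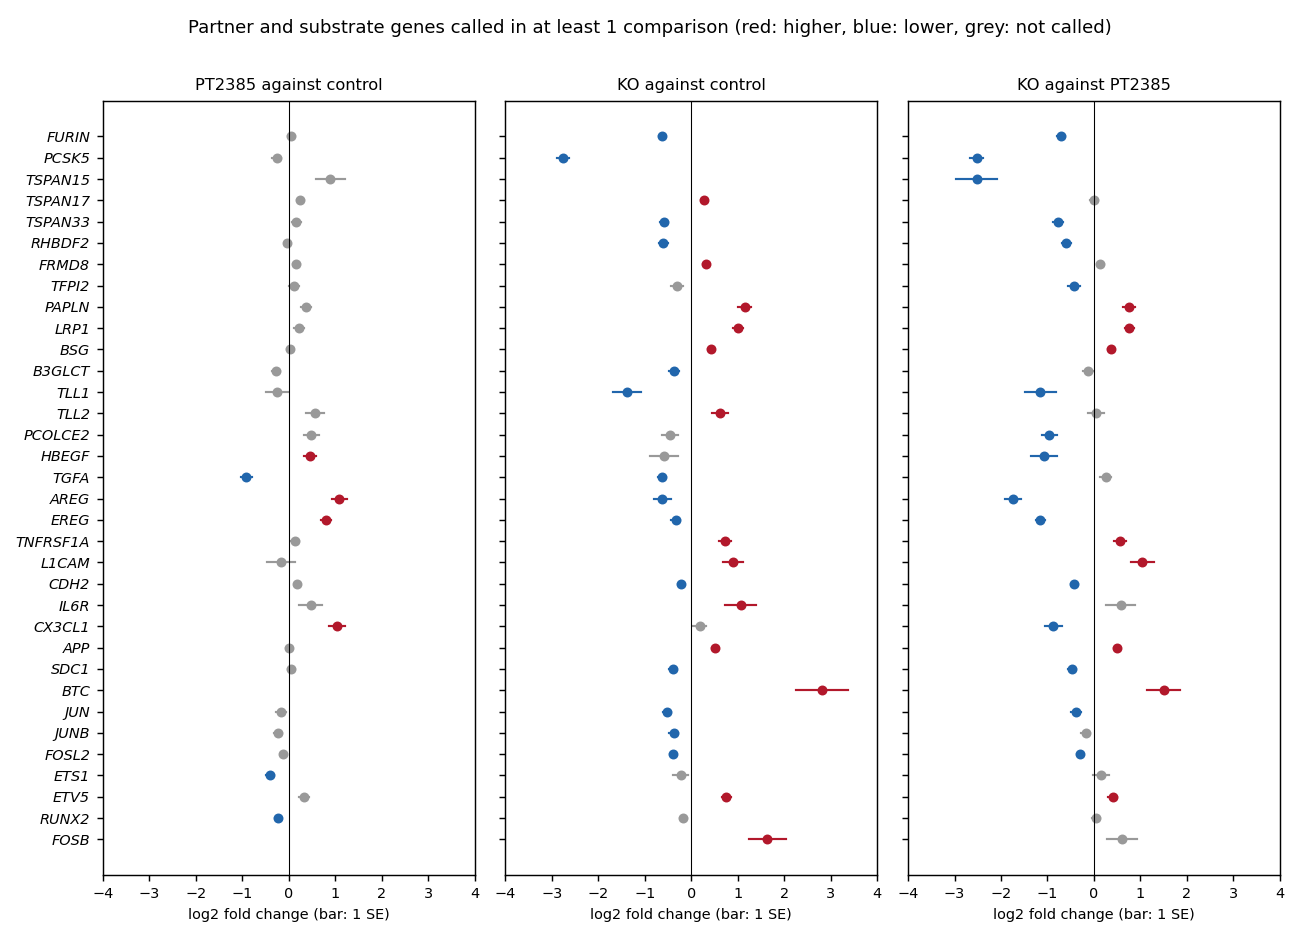
Log2 fold change with 1 SE on each side for the partner and substrate genes called in at least 1 comparison, with red for higher, blue for lower and grey for genes that did not pass. EREG, AREG and HBEGF are red with PT2385 and blue in KO against PT2385, and PCSK5 is the lowest gene in KO against control.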

How the data were processed

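Total RNA of 786-0 cells was sequenced in 9 libraries. Per the labels and the study's methods, the authors checked reads with FastQC, trimmed them with cutadapt, aligned them to GRCh38 with STAR and counted them per gene with featureCounts. The deposited values are raw counts per Ensembl gene, with replicates kept apart. Tool versions, the annotation release and the strand setting are not given in the sources used here. All 9 columns were mapped to a sample by name, and 58207 of 58735 genes were paired with a GENCODE release 44 symbol.

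Each pair of groups was tested in its own model over all genes with edgeR 4.0.16 (R 4.3.3, limma 3.58.1), using TMM factors, filterByExpr (minimum 10 counts), and quasi-likelihood F tests. P-values were adjusted by Benjamini-Hochberg across every gene that passed the filter, and the threshold was 0.05. SE is the absolute log2 fold change over the square root of F, and a 95% interval is given for some of the values that were not called. CPM used TMM factors over all 9 libraries, and RPKM is CPM per kilobase of merged exons. Depth was 11881000 to 14730081 counts per library. Replicates of a group differed beyond counting noise, so that no library was counted as a duplicate. The scripts were tested on simulated counts.

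The members and the lists of partner genes were chosen with earlier results of these data known. Called members were named with values, uncalled members with values for the 5 highest RPKM and otherwise as a range, and untested members by name only. Partner genes were named from fixed lists. Alternatives were DESeq2 1.42.0, RLE, upper-quartile or no scaling beyond library size, no filter, a minimum of 10 counts in each library, a block for the replicate number, 1 model of all 9 libraries, and leaving out each replicate. Promoter windows came from RefSeq (GRCh38.p14). A further list of cell type markers is not reported here.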

Additional observations from a re-analysis of the deposited data

How the results depend on the processing

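The number of members called with PT2385 was 5. It was 9 with the replicate number as a block, from 4 to 7 under the other alternatives that kept all libraries, and from 1 to 7 when 1 replicate was left out. It was 1 without control replicate 1, 2 without control replicate 2 and 3 without PT2385 replicate 2. The number called over all genes fell in these fits as well. In KO against control the number of members called was 22, between 19 and 25 under the alternatives and between 19 and 23 with 1 replicate left out. In KO against PT2385 it was 18, with ranges of 15 to 21 and 15 to 19. Of the 22 members, 18 were called in every alternative that tested them, and so were 15 of the 18, but only 1 of the 5 (ADAMTS15). Without a filter 52, 51 and 55 members were tested, and with at least 10 counts in every library 30, 26 and 26.

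Among the 25 members called in at least 1 comparison, the direction changed for 3 uncalled values. ADAM22 with PT2385 (log2 fold change 0.01) ran from -0.065 to 0.16 with 1 replicate left out, ADAMTSL3 with PT2385 (0.03) from -0.16 to 0.14, and ADAMTS16 in KO against PT2385 (0.08) from -0.0082 to 0.19. Of the 8 members tested and called in no comparison, ADAM8, ADAMTS13, ADAMTSL1, ADAMTSL4 and MMP15 changed direction under an alternative in at least 1 comparison. For ADAMTSL1 in KO against control (0.01) the value was -0.37 without KO replicate 3. The cause was not tested.

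With the replicate number as a block (replicate block), 9 members were called with PT2385, 6 higher and 3 lower, 24 in KO against control and 19 in KO against PT2385. The block also raised the number called with PT2385 over all genes, so the gain was not confined to the members. The members gained with PT2385 were ADAM19 (adjusted p = 0.0400), ADAMTS1 (0.00420), MMP1 (0.0215) and MMP13 (0.0232). Nothing in the labels says that a number marks a shared culture or day. Deviations of same-numbered libraries from their group means correlated at 0.267, 0.0498 and 0.261 between control and PT2385, at 0.170, -0.00023 and 0.267 between control and KO, and at 0.205, 0.0253 and 0.263 between PT2385 and KO. Among the KO libraries, control replicate 2 correlated best with replicate 3 (0.0123) and not with its own number. Genes with few counts are limited by depth: MMP1, MMP9, MMP13 and ADAMTS7 were left untested in some comparisons when at least 10 counts were asked of every library.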

Other observations

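Among the 38 members with too few reads for a test, 16 of them at 0 counts, 2 had counts whose groups did not overlap in any of the 3 comparisons. Of all genes tested, groups did not overlap for 26% with PT2385, 44.1% in KO against control and 35.4% in KO against PT2385. The share for all 3 comparisons at once, or for genes with so few counts, was not computed. These 2 members were chosen after their values were seen. MMP17, a membrane-type MMP held by a lipid anchor, had counts of 4, 5 and 3 in control, 13, 11 and 7 with PT2385 and 1, 0 and 1 in KO. ADAM18, a member known from the testis, had counts of 3, 5 and 4 in control, 1, 1 and 1 with PT2385 and 0, 0 and 0 in KO. Without the filter on low counts, edgeR's quasi-likelihood test gave MMP17 an adjusted p of 0.257 with PT2385, 0.0856 in KO against control and 6.73e-05 in KO against PT2385. For ADAM18 these were 0.318, 0.00644 and 0.422. Single counts decide such values, and a count of 0 allows up to 3.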
